A study of Fukomys damarensis with 47 samples.

Results

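COL1A1 and PHEX are 2 genes that osteoblasts use to build and mineralize bone. They were taken by name from the symbols that the study pairs with its gene identifiers, as COL1A1 (ENSFDAG00000004129) and PHEX (ENSFDAG00000004447), and are 2 of the 33562 genes in the table of counts. Both passed the filter on low counts and are among the 11047 genes tested. RNA-Seq was available for 47 cultures of bone marrow-derived cells from 16 female Damaraland mole-rats (Fukomys damarensis) of 8 natal colonies. The 5 queens (MAF006, NOF009, DVF007, LAF007 and WAF014) had been housed with an unrelated male, and were 1004 to 1132 days old. The 7 helpers (1003 to 1232 days old) had stayed in their natal colony and the 4 solitaires (1105 to 1231 days old) had been housed alone, and together they are the nonbreeders. The cultures were of pooled long bones in 26 libraries and of pooled lumbar vertebrae (LV) in 21 libraries from 14 animals, and they received 10 nM estradiol or vehicle for a day. They were enriched for mesenchymal stromal cells, and cells of other lineages can be present.

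Osteoblasts lay down a matrix made mostly of type I collagen, and then help calcium phosphate to crystallize within it. COL1A1 codes for a chain of this collagen and is also active in fibroblasts and other stromal cells of the marrow. PHEX encodes an endopeptidase on the surface of osteoblasts and osteocytes that keeps the phosphate-lowering hormone FGF23 in check, and its loss causes X-linked hypophosphatemia, in which bone is poorly mineralized. The former is therefore read mostly as a gene of the matrix and the latter as a gene of mineralization and of the later osteoblast lineage.

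Total counts were between 5329563 and 16327339 per library, with a median of 8784879. COL1A1 had 189 to 23231 counts in a library (median 3383). PHEX had 18 to 1484 counts (median 59), so counting error is a larger share of its values. Levels are given as CPM, which are counts scaled to a common library size with TMM factors, and log2 CPM values have a prior count of 2. Levels of both genes are not set against each other, since gene lengths for the assembly were not used here. Transcripts of 12 leukocyte genes were present in all 47 libraries, with a summed level of 44.5 to 3475 CPM. LAPTM5 and CORO1A, which mark leukocytes in general, were above 0 in every library, and IL10RA, CD180, PTAFR, TLR8, PARVG and GPR65 were at 0 in at least 1 library. The 4 highest summed levels were those of the long bones of the queens MAF006 (2089 CPM with vehicle and 3475 with estradiol) and NOF009 (2591 and 2369). In bulk cultures, fewer cells of a type and less RNA per cell cannot be told apart. Several comparisons that involve these queens are also given without MAF006, or without both. MAF006 (1132 days old) and NOF009 (1075) were also the oldest queens, with the others at 1004 to 1006 days. Leaving both out thus removes the older queens as well, and the part of age was not tested.

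COL1A1 was detected in every library, and its level in the long bones differed most among queens. With vehicle, it was at 2501 CPM in the queen DVF007, 606 in WAF014, 339.7 in LAF007, 238 in NOF009 and 26.3 in MAF006. With estradiol, it was at 1429.6 CPM in LAF007, 439 in WAF014, 219 in NOF009 and 36.2 in MAF006. The queens thus held both the highest and the lowest COL1A1 level of all 47 libraries, which are 95.2-fold apart. Long bone cells of nonbreeders lay inside this range, with a lowest value of 151 CPM, a median of 343 and a highest value of 1421 among 11 vehicle libraries. Their 6 estradiol libraries had a lowest value of 139.7 CPM, a median of 469 and a highest value of 1182. The SD over animals was 2.37 log2 CPM for 5 queens and 0.90 for 11 nonbreeders, while the means were 8.57 and 8.56. Without MAF006 the SD of the queens was 1.44 and their mean 9.47 (n = 4).

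In the LV, COL1A1 spread less over animals, with an SD of 0.71 log2 CPM (n = 14) against 1.43 (n = 16) in the long bones. Vehicle libraries of queens were at 1274 CPM in WAF014, 497 in DVF007 and 327 in LAF007, and their estradiol libraries at 407 in WAF014, 382 in DVF007 and 264 in MAF006. The 10 vehicle libraries of nonbreeders had a lowest value of 87.3 CPM, a median of 301 and a highest value of 648. The estradiol libraries of nonbreeders were at 982 CPM in DVF008, 515 in NOF007, 317 in WAF011, 304 in G4F019 and 168 in WEF001. Queens and nonbreeders overlapped under both treatments. Ordered by the mean over animals, the helpers' long bones came first (8.76 ± 0.97 log2 CPM, SD, n = 7), then the LV of queens (8.74 ± 0.76, SD, n = 4), the LV of helpers (8.65 ± 0.52, SD, n = 6), the long bones of queens (8.57 ± 2.37, SD, n = 5), the long bones of solitaires (8.21 ± 0.76, SD, n = 4) and the LV of solitaires (7.93 ± 0.77, SD, n = 4). No neighbours in this order differed by more than the larger of their SDs.

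PHEX was low in the long bones of every animal. Vehicle libraries of queens were at 14.6 CPM in MAF006, 8.74 in LAF007, 8.30 in NOF009, 6.04 in WAF014 and 3.66 in DVF007. Estradiol libraries of queens were at 5.76 CPM in WAF014, 5.59 in NOF009, 4.602 in LAF007 and 2.90 in MAF006. MAF006 thus had the highest vehicle level and the lowest estradiol level of PHEX in the long bones. For nonbreeders, the 11 vehicle libraries had a lowest value of 3.24 CPM, a median of 5.34 and a highest value of 12.3, and the 6 estradiol libraries a lowest value of 5.36, a median of 5.99 and a highest value of 11.2.

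PHEX in the LV was at 13.2 CPM in LAF007, 12.3 in DVF007 and 10.2 in WAF014 in the vehicle libraries of queens. Their estradiol libraries were at 219.7 CPM in MAF006, 15.2 in DVF007 and 10.2 in WAF014. MAF006 stood far above all others, and this was the only LV library from this queen. The 10 vehicle libraries of nonbreeders had a lowest value of 3.55 CPM, a median of 7.89 and a highest value of 18.7. In the estradiol libraries of nonbreeders PHEX was at 16.7 CPM in WAF011, 9.84 in NOF007, 9.00 in WEF001, 8.71 in DVF008 and 3.81 in G4F019. The helper WAF011 was the highest nonbreeder in both bone types and under both treatments, with 12.3 and 11.2 CPM in the long bones and 18.7 and 16.7 in the LV. Ordered by the mean over animals, the LV of queens came first (4.67 ± 2.08 log2 CPM, SD, n = 4), then the LV of helpers (3.05 ± 0.74, SD, n = 6) and of solitaires (2.75 ± 0.59, SD, n = 4), and then the long bones of queens (2.67 ± 0.47, SD, n = 5), helpers (2.65 ± 0.45, SD, n = 7) and solitaires (2.49 ± 0.28, SD, n = 4). Here too, no neighbours differed by more than the larger of their SDs.

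**Figure D1:**
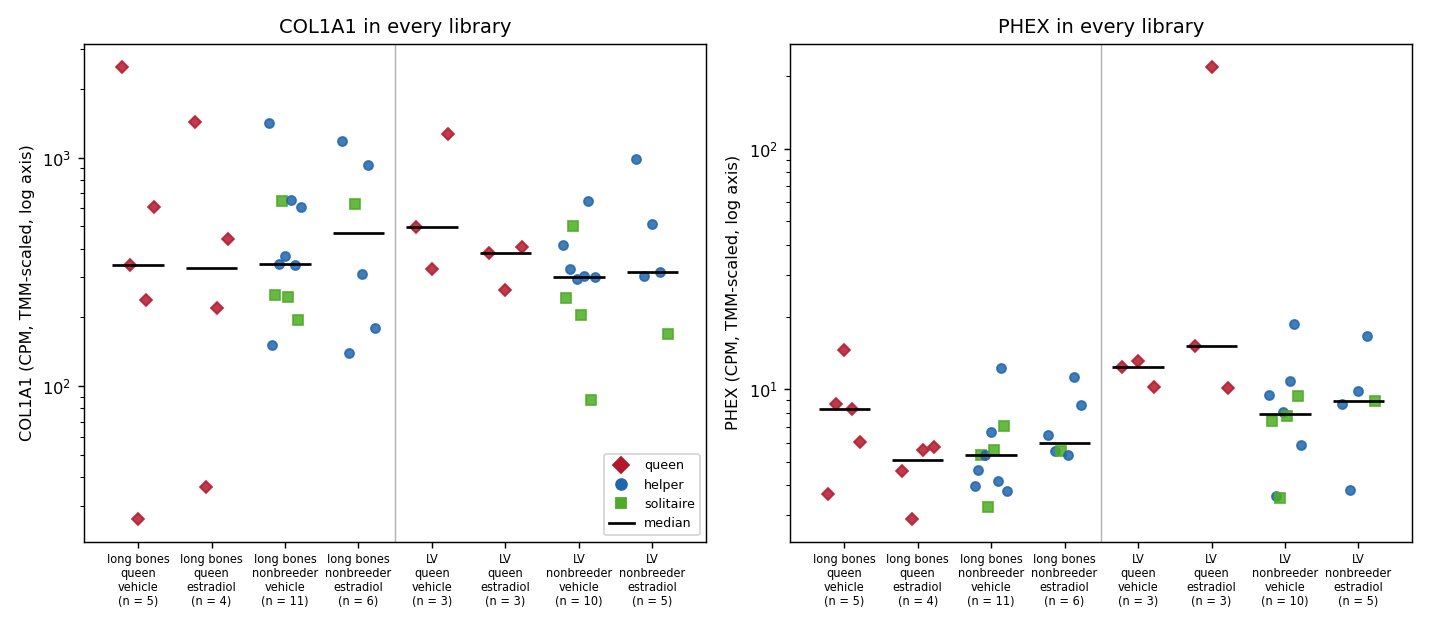
Levels of COL1A1 and PHEX in each of the 47 libraries, as TMM-scaled CPM on a log axis, grouped by bone type, breeding status and treatment, with the median of each group as a bar. COL1A1 was highest (2501 CPM) and lowest (26.3 CPM) in long bone libraries of queens, and a single LV library of the queen MAF006 had PHEX at 219.7 CPM.

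The PHEX level in the LV library of MAF006 rested on 1484 counts. It was 11.8-fold above the next highest library of the series (18.7 CPM), the LV library of the helper WAF011 with vehicle. Of the 11047 genes tested, 544 had their highest level in the same library. PHEX was the only gene that exceeded its next highest library there by 8-fold or more (with 1 CPM added to both), and this fold was chosen after its values were seen. The genes of the phosphate and mineral pathway did not stand out with it. ANKH, which moves pyrophosphate and so restrains crystal growth, was at 75.7 CPM, place 24 of 47 from the highest. FGFR1, a receptor through which FGF23 acts, was at 7.11 CPM and place 37. XPR1, a phosphate exporter, was at 11.7 CPM and place 44, and COL1A1 itself, at 264 CPM, was at place 33. Of the 5 gene lists described further on, no gene was highest in that library. The summed leukocyte level there was 854 CPM, the highest of the 6 LV libraries of queens, whose median was 232.

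Comparing bone types within animals asks whether the same female's vertebrae and long bones differ, and PHEX was higher in the LV while COL1A1 was not called. Levels of an animal add its libraries of both treatments where it had both, and MAF006 had only estradiol in the LV. PHEX was higher in the LV in 11 of 14 animals. In the 4 queens, PHEX went from 9.17 CPM in the long bones to 219.7 in the LV in MAF006, from 3.66 to 13.9 in DVF007, from 6.81 to 13.2 in LAF007 and from 5.90 to 10.2 in WAF014. All queens were higher in the LV, by 2.04 ± 1.75 on the log2 scale (SD, n = 4). Nonbreeders were higher in 7 of 10 animals, by 0.32 ± 0.49 (SD, n = 10), with WEF002, G4F019 and G4F020 lower. Over all 14 animals the fitted log2 difference was 0.78 (SE 0.30), or 1.71-fold (edgeR quasi-likelihood test with animal as block, Benjamini-Hochberg adjusted p = 0.0957, FDR threshold 10%). This is close to the threshold. Of all genes tested, 19.7% were called in this comparison (9.26% higher in the LV and 10.5% lower), so a call is common here. Without MAF006 the difference was 0.55 (SE 0.17, edgeR adjusted p = 0.0547), and with vehicle libraries only it was 0.62 (SE 0.17, edgeR adjusted p = 0.0468). The call was lost in 10 of the 14 fits that left out 1 animal, with adjusted p up to 0.176, and in a limma voom model of all 47 libraries (0.28, SE 0.35, adjusted p = 0.918). The bone term of that model is the difference in vehicle libraries of nonbreeders, not that over all animals. This holds wherever voom is named for bone types.

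With an animal's treatments added, COL1A1 was lower in the LV in all 10 nonbreeders. It was lower by 0.34 ± 0.23 on the log2 scale (SD, n = 10), from 0.04 in G1F025 to 0.84 in DVF008. Queens were spread to both sides of 0. COL1A1 went from 2501 CPM in the long bones to 436 in the LV in DVF007 and from 848 to 327 in LAF007, but from 30.9 to 264 in MAF006 and from 521 to 883 in WAF014. With vehicle in both bones, COL1A1 was at 339.7 and 327 CPM in LAF007, 2501 and 497 in DVF007 and 606 and 1274 in WAF014. MAF006 had no vehicle library of the LV, and with estradiol COL1A1 was at 36.2 and 264 there. The helper WAF011 was higher in the LV with vehicle, at 648 CPM against 340.3. The fitted log2 difference over 14 animals was -0.29 (SE 0.28, edgeR adjusted p = 0.481), which does not pass the threshold. Without MAF006 it was -0.48 (SE 0.18, edgeR adjusted p = 0.103). The leukocyte markers also differed between bone types. They were lower in the LV in 11 of 12 genes, 7 of them called, with a median log2 difference of -0.87 against -0.02 for all genes tested, and the part of these cells in the values of either gene was not tested.

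**Figure D2:**
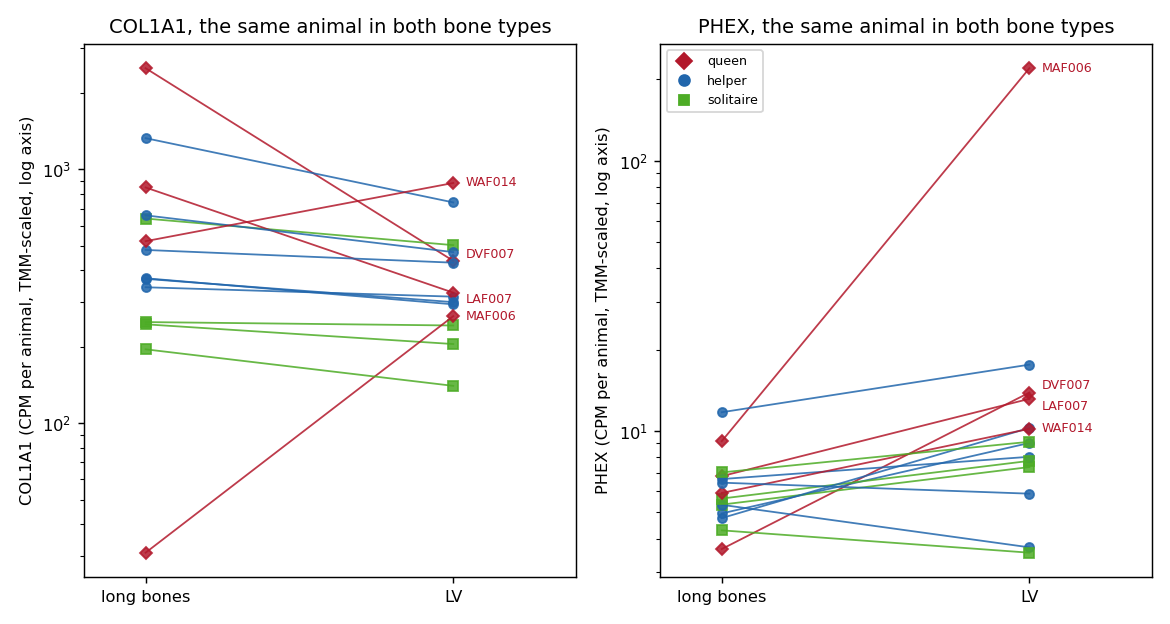
COL1A1 and PHEX of 14 animals in the long bones and the LV, as TMM-scaled CPM per animal on a log axis, with a line for each animal. Libraries of both treatments were added where an animal had both. All 10 nonbreeders had less COL1A1 in the LV while the 4 queens split, and 11 of 14 animals, among them every queen, had more PHEX in the LV.

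Queens were compared with nonbreeders within each bone type. By edgeR, with its filter on low counts, neither gene was called in either. PHEX in the LV passed the 10% threshold only in an exact permutation test of levels that ignores colonies and by edgeR without that filter. Levels in pairs of sisters add an animal's libraries of both treatments, where it had both. COL1A1 in the long bones was higher in the queen than in her nonbreeding sister in 2 of 5 pairs. Queen and sister had 2501 and 1326 CPM in the colony DV and 848 and 372 in LA. The queen was lower in MA, with 30.9 CPM against 245, in NO, with 228 against 481, and in WA, with 521 against 658. With vehicle alone, the LA queen was lower (339.7 CPM against 372) and the WA queen higher (606 against 340.3). In DV, MA and NO the direction stayed the same. The fitted log2 difference was -0.39 (SE 0.55, edgeR with natal colony as block, adjusted p = 0.843), and no gene was called (0% of those tested, 960 at an unadjusted p under 0.05, and 391 called by DESeq2). These 960 genes exceed the share of 0.05 that chance gives, and the smallest edgeR adjusted p of any gene was 0.105, close to the threshold. Without MAF006 and NOF009 the difference of COL1A1 was 0.59 (SE 0.38, edgeR adjusted p = 1.00). The sign also turned without MAF006 alone or without her sister MAF003 (0.18 in both), and in the fit without colonies (0.83), but not without NOF009 alone (-0.18). PHEX in the long bones was higher in the queen in 3 of 5 pairs, and its fitted log2 difference was -0.03 (SE 0.26, edgeR adjusted p = 0.977). It was -0.48 (SE 0.26) without the same queens.

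In the LV, PHEX was higher in the queen than in her sister in 3 of 4 pairs. The queen and her sister had 219.7 and 7.76 CPM in MA, 13.9 and 9.04 in DV and 13.2 and 8.03 in LA, and in WA the queen was lower, with 10.2 against 17.6. The MA pair sets an estradiol library of the queen against a vehicle library of her sister. Status and treatment cannot be told apart in that pair. In the other pairs both sisters had the same treatments. Fitted over 14 animals, the log2 difference was 1.12 (SE 0.77, edgeR with natal colony as block, adjusted p = 0.999), and again 0% of genes were called (378 at an unadjusted p under 0.05, and 105 called by DESeq2). Without MAF006 it was 0.19 (SE 0.34), in vehicle libraries alone 0.064 (SE 0.37), and without the colonies 3.01 (SE 0.64, edgeR adjusted p = 0.939). The 12 leukocyte markers had positive differences too, with a median of 1.30, and their part was not tested. A comparison of the levels that does not use the colonies gave 4.67 ± 2.08 log2 CPM in queens (SD, n = 4) and 2.93 ± 0.67 in nonbreeders (SD, n = 10), with an exact two-sided permutation p = 0.0140 (adjusted p = 0.0559 over 4 such tests). That difference of 1.75 was 0.71 without MAF006 (exact permutation p = 0.101), and was 0.62 in vehicle libraries alone (3 queens, exact permutation p = 0.161). Its adjusted p was also over 0.10 without DVF007 or without LAF007. The permutation test treats animals as exchangeable, although sisters of a colony deviated together, and the fit with colonies did not call PHEX. Queens lay at or above 10.2 CPM, and the nonbreeders NOF007 (10.3) and WAF011 (17.6) reached into their range. COL1A1 in the LV was higher in the queen in 3 of 4 pairs, with a fitted log2 difference of 0.20 (SE 0.31, edgeR adjusted p = 0.999). The exact permutation p of its levels was 0.382 in the LV and 0.995 in the long bones, and that of PHEX in the long bones was 0.737. Without MAF006 the difference of COL1A1 levels in the long bones went from 0.0051 to 0.91.

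Whether the queen effect differed between bone types was tested directly, as an interaction within 14 animals. The block was the animal, and no term gave a colony its own bone difference. Queens were thus not set against their own sisters, and the part of age was not tested. The PHEX effect of queens was 1.65 higher (log2, SE 0.55) in the LV than in the long bones. This was place 58 of 11047 by p (edgeR unadjusted p = 0.00809), but it did not pass the correction (adjusted p = 0.794, 0% of genes called, 539 at an unadjusted p under 0.05, 3 called by DESeq2). These 539 genes are close to the share of 0.05 that chance gives. The PHEX difference was 0.89 (SE 0.35) without MAF006. In vehicle libraries alone, where MAF006 has no LV library, it was 0.53 (SE 0.39, edgeR unadjusted p = 0.190). Without WAF014 it was 2.18 (SE 0.57, edgeR adjusted p = 0.0434), in a fit that called 9.89% of all genes. For COL1A1, the difference of the queen effects was 0.24 (SE 0.69, edgeR adjusted p = 0.932), and without MAF006 it was -0.70 (SE 0.43).

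Solitaires were compared with helpers because both are nonbreeders and only the former were away from the queen of their colony. COL1A1 was at 250 CPM in G1F025, 639.5 in G4F020, 245 in MAF003 and 195 in WEF001 in the long bones of solitaires, against a lowest value of 146, a median of 372 and a highest value of 1326 in 7 helpers. The groups overlapped. The fitted log2 difference was 0.87 (SE 0.58, edgeR adjusted p = 0.632) with natal colony as block, although the mean of the solitaires was the lower, and it was -0.63 (SE 0.78) without that block. Without MAF006 it was 0.28 (SE 0.47), and in a fit of helpers and solitaires alone 0.28 (SE 0.37). Of the genes tested, 0.00905% were called in the long bones, that is 1 gene. In the LV, it was -0.22 (SE 0.40, edgeR adjusted p = 0.998, 0% called, 308 genes at an unadjusted p under 0.05, 6 called by DESeq2). PHEX was at 5.34, 4.29, 5.63 and 7.03 CPM in the long bones of G1F025, G4F020, MAF003 and WEF001, and at 7.36, 3.55, 7.76 and 9.13 in their LV. Helpers ranged from 4.77 to 11.7 CPM in the former and from 3.71 to 17.6 in the latter. The fitted log2 difference of PHEX was -0.22 (SE 0.30, edgeR adjusted p = 0.810) in the long bones and -1.05 (SE 0.96, edgeR adjusted p = 0.998) in the LV. Without the queen MAF006, who shares a natal colony with the solitaire MAF003, the LV value was 0.31 (SE 0.46).

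Estradiol was compared with vehicle in the same animal and bone, to ask whether the cells respond to this hormone, and neither gene was called. COL1A1 in the long bones was higher with estradiol in 3 of 10 animals. The changes were large in single animals, from 340 to 1429.6 CPM in LAF007 and from 340.3 to 933 in WAF011, but from 605 to 179.6 in WEF002 and from 649.8 to 309 in NOF007. The fitted log2 difference was -0.0023 (SE 0.32, edgeR adjusted p = 1.00, 0% of genes called, 129 at an unadjusted p under 0.05, 5 called by DESeq2). In the LV it was -0.02 (SE 0.36, edgeR adjusted p = 1.00, 0% called, 55 genes at an unadjusted p under 0.05, 6 called by DESeq2), with 3 of 7 animals higher. There, COL1A1 went from 416 to 982 CPM in DVF008, from 303 to 515 in NOF007 and from 87.3 to 168 in WEF001, and fell from 1274 to 407 in WAF014, from 648 to 317 in WAF011, from 497 to 382 in DVF007 and from 327 to 304 in G4F019. The helpers NOF007, WAF011 and DVF008 moved in opposite directions in the LV and the long bones.

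In the LV, the 7 animals with both treatments changed in PHEX by -0.02 ± 0.16 on the log2 scale (SD, n = 7), between -0.16 and 0.30. The fitted log2 difference was -0.02 (SE 0.14, edgeR adjusted p = 1.00). In the long bones the animals spread further. All 4 queens were lower with estradiol, from 14.6 to 2.90 CPM in MAF006, from 8.74 to 4.602 in LAF007, from 8.30 to 5.59 in NOF009 and from 6.04 to 5.76 in WAF014. Of 6 nonbreeders, 5 were higher with estradiol, from 3.77 to 8.61 CPM in WEF002, from 3.24 to 5.53 in G4F020, from 3.97 to 6.45 in DVF008, from 4.18 to 5.36 in NOF007 and from 4.63 to 5.53 in G1F022. WAF011 was lower, from 12.3 to 11.2 CPM. The largest change in each group rested on few counts, with 18 for PHEX in MAF006 with estradiol and 22 in WEF002 with vehicle. Other genes also differed in these pairs. From vehicle to estradiol, the summed leukocyte level went from 2089 to 3475 CPM in MAF006. That of the contractile genes CNN1, MYL9 and SMTN went from 1440 to 419 CPM in WEF002. The part of these differences was not tested. Queens had a mean log2 change of -0.94 ± 0.94 (SD, n = 4), and that of nonbreeders was 0.50 ± 0.44 (SD, n = 6). Over all 10 animals the fitted difference was -0.06 (SE 0.29, edgeR adjusted p = 1.00).

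The difference between queens and nonbreeders in this response was -1.45 on the log2 scale (SE 0.46). Here too the block was the animal, and queens were not set against their own sisters. PHEX had the smallest p of all 11047 genes in that test (edgeR unadjusted p = 0.00808), yet did not pass the correction (adjusted p = 0.945, 0% of genes called, 27 at an unadjusted p under 0.05, 0 called by DESeq2). These 27 genes are fewer than the share of 0.05 that chance gives, so the first place by p carries little weight. Without MAF006 the difference in response was -1.03 (SE 0.39), and without MAF006 and NOF009 -0.997 (SE 0.46). The same difference for COL1A1 was 0.77 (SE 0.62, edgeR adjusted p = 0.945), and 1.12 (SE 0.91) without MAF006 and NOF009. Only 2 queens had both treatments in the LV, and the difference was not fitted there.

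**Figure D3:**
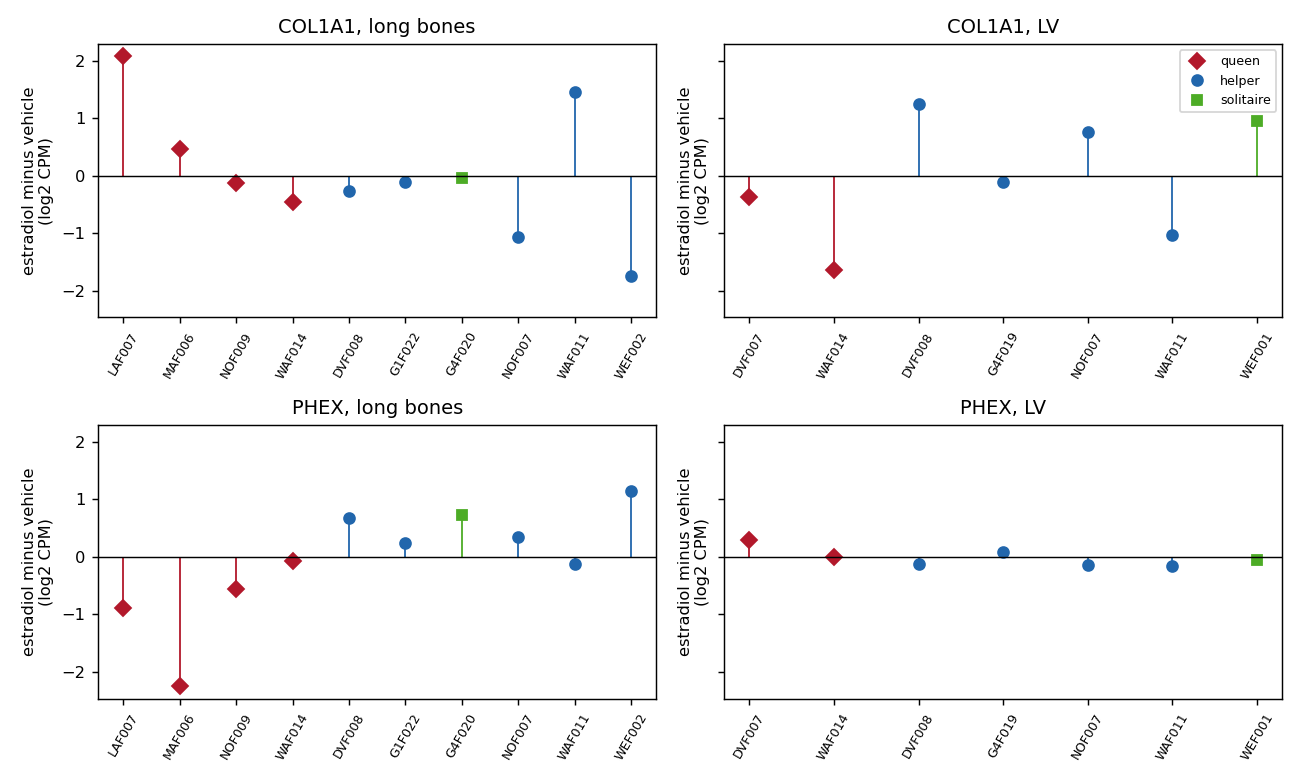
Estradiol minus vehicle of COL1A1 and PHEX, in log2 CPM, for each animal with both treatments in a bone type, queens first. PHEX in the long bones was lower with estradiol in 4 of 4 queens and higher in 5 of 6 nonbreeders, while in the LV it changed by at most 0.30.

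**Figure D4:**
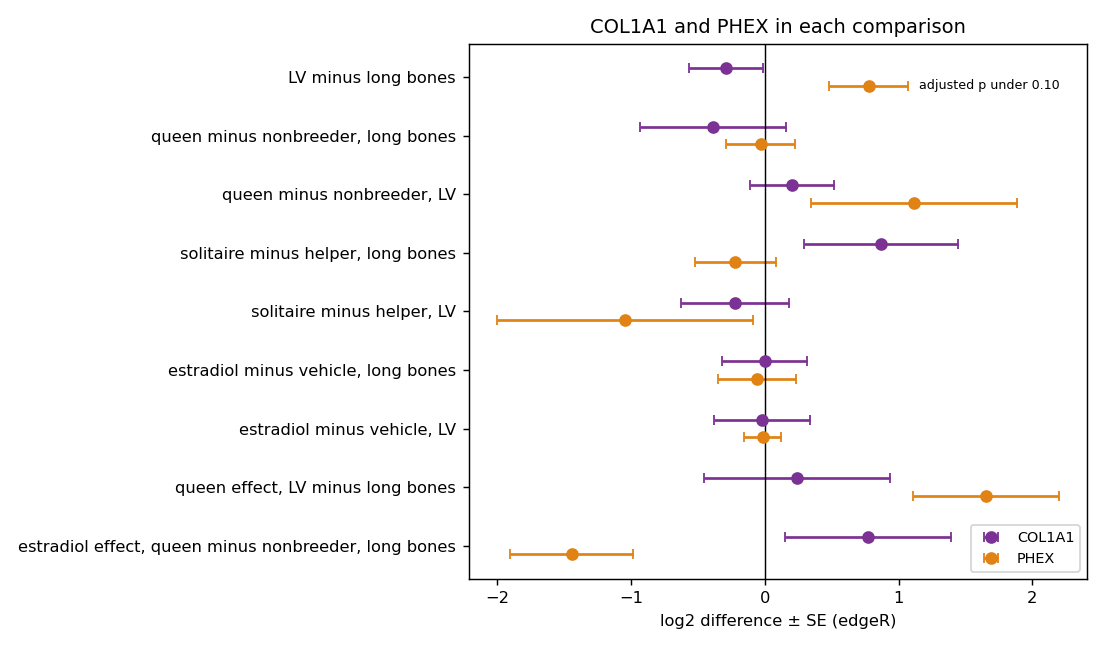
Fitted log2 difference with its standard error (edgeR) for COL1A1 and PHEX in each of 9 comparisons. The only call at an FDR of 10% was PHEX between bone types, at 0.78.

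Over the 47 libraries, which share animals, Pearson's r of their log2 CPM was -0.12 and Spearman's rho -0.10, and PHEX was at place 6628 of 11046 genes by likeness to COL1A1. Across 16 animals in the long bones, r was -0.45 (permutation p = 0.0800, adjusted p = 0.240 over 6 relations) and rho was -0.38 (permutation p = 0.147, adjusted p = 0.441). Without DVF007 and MAF006, the animals farthest from the median of COL1A1, r was 0.04, so the correlation rested on these queens. In vehicle libraries alone it was stronger, with r = -0.71 (permutation p = 0.00193, adjusted p = 0.0116) and rho = -0.67 (permutation p = 0.00550, adjusted p = 0.0330), and r = -0.46 without the same queens. These permutation p-values treat animals as exchangeable and ignore the natal colonies, although sisters of a colony deviated together. Across 14 animals in the LV, r was -0.08 (permutation p = 0.757, adjusted p = 0.908) and rho was 0.13 (permutation p = 0.647, adjusted p = 0.939), and r stayed at -0.08 without DVF008 and WAF014.

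Between COL1A1 and the leukocyte level in the long bones, no correlation passed an adjusted p of 0.10. Across 16 animals, r was -0.59 (permutation p = 0.0173, adjusted p = 0.104) and rho was -0.53 (permutation p = 0.0360, adjusted p = 0.216). It was -0.30 without MAF006 and NOF009, the animals farthest from the median leukocyte level, and so rested on them. In vehicle libraries alone r was -0.49 (permutation p = 0.0555, adjusted p = 0.166) and rho was -0.45 (permutation p = 0.0796, adjusted p = 0.239), with r = -0.16 without the same animals. For PHEX there, r with the leukocyte level was -0.0069 (permutation p = 0.981, adjusted p = 0.981), rho was 0.04 (permutation p = 0.871, adjusted p = 0.939), and r was -0.49 without the same animals. In the LV, r was -0.10 for COL1A1 (permutation p = 0.732, adjusted p = 0.908) and rho -0.20 (permutation p = 0.501, adjusted p = 0.939), with r = -0.10 without MAF006 and NOF007. For PHEX in the LV, r was 0.29 (permutation p = 0.340, adjusted p = 0.680) and rho -0.02 (permutation p = 0.939, adjusted p = 0.939), with r = -0.49 without those 2 animals.

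**Figure D5:**
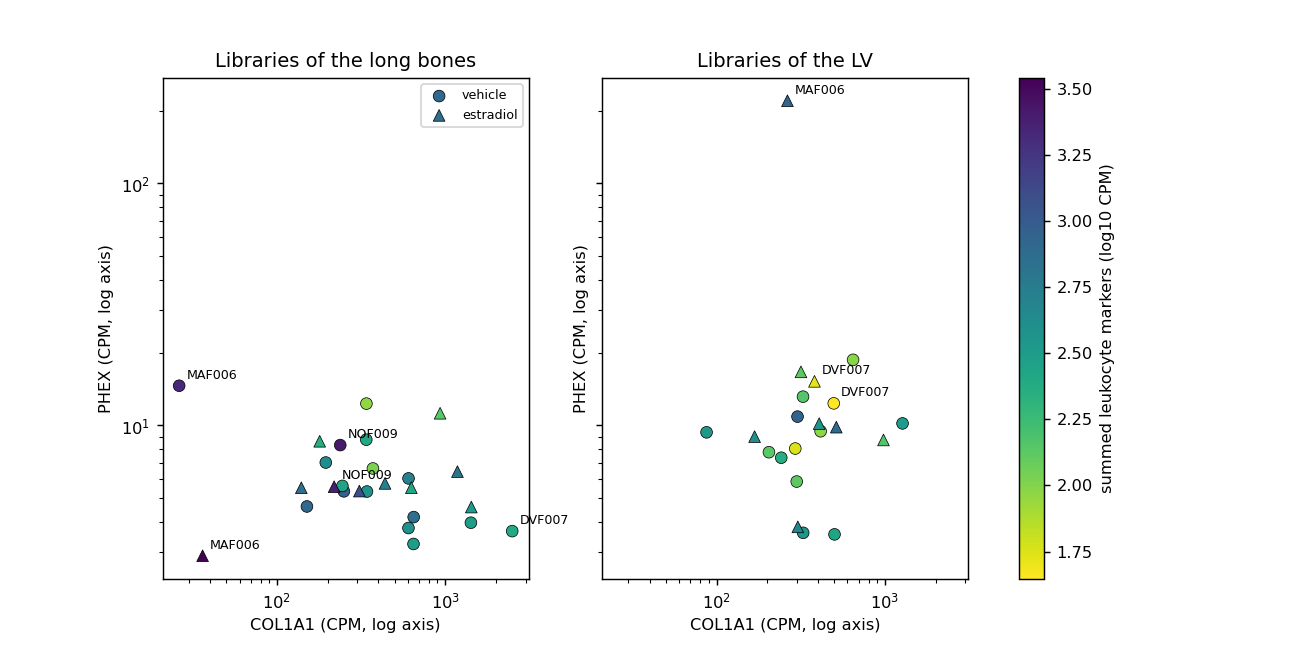
PHEX against COL1A1 in each library of the long bones (left) and the LV (right), as CPM on log axes, coloured by the summed level of 12 leukocyte markers. The long bone libraries of MAF006, at 26.3 and 36.2 CPM of COL1A1, are among those with the most leukocyte transcripts, and its LV library stands apart at 219.7 CPM of PHEX.

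The genes with a symbol that followed COL1A1 most closely over the 47 libraries were ARHGEF17 (r = 0.91), TGFB3, a ligand of the TGF-beta family (0.90), ABHD2, a hydrolase (0.89), MMP2, a protease that cleaves collagens (0.89), and SCUBE3, a secreted protein of the cell surface (0.89). The symbols at hand covered 1147 rows of the study's gene table, and ARHGEF17 was at place 12 among all 11046. PHEX was followed less closely. Its nearest genes were NRIP1, a corepressor of nuclear receptors (r = 0.68, place 2), CDC40, a splicing factor (0.62), NUP155 of the nuclear pore (0.60), ZNF23, a zinc finger protein (0.60), and CEBPZ, which acts in the nucleolus (0.60).

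Genes of the matrix around COL1A1 were followed as lists. In the collagen and elastic matrix list, 8 of 10 genes were lower in the LV than in the long bones, with a median log2 difference of -0.25 against -0.02 for all genes tested, and 1 fell at an FDR of 10%. This was CRISPLD2, a secreted matrix protein (-0.93, SE 0.34, edgeR adjusted p = 0.0825), beside 10.5% of all genes called lower. Its call was lost in 8 of 14 fits without 1 animal, with vehicle libraries only and with voom. COL5A2, a chain of the type V collagen that joins type I fibrils, was at -0.18 (SE 0.27). Of 8 genes for collagen receptors and matrix turnover, 0 were called by edgeR and 1 had an unadjusted p under 0.05, with a median of -0.08; the collagen receptor DDR2 was at -0.0011 (SE 0.20) and MMP2 at -0.13 (SE 0.13). Of 11 genes of the secretory pathway, through which procollagen leaves the cell, 1 rose in the LV, the cargo receptor LMAN1 (0.30, SE 0.11, edgeR adjusted p = 0.0730), with a median of 0.02. This is near the 9.26% of all genes called higher, and the call was lost in 6 of 14 fits without 1 animal, with vehicle libraries only, without the block and with voom.

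The list for phosphate, pyrophosphate and mineral had 4 tested genes beside PHEX, and 2 of them rose in the LV, with a median of 0.38. FGFR1 was higher by 1.12 (SE 0.22, edgeR adjusted p = 0.00350) and ANKH by 0.81 (SE 0.30, edgeR adjusted p = 0.0912). FGFR1 kept its call in all 14 fits without 1 animal and in the 7 other alternatives, while ANKH lost it in 9 of the 14, with vehicle libraries only and with voom. XPR1, at -0.06 (SE 0.10), and STC2, a secreted glycoprotein linked to phosphate handling, at -0.06 (SE 0.15), did not pass. PTHLH did not pass the filter. In the list for bone growth factor signalling, 1 of 16 tested genes rose and 3 fell in the LV, with a median of -0.08. ENG, a TGF-beta co-receptor, rose (0.91, SE 0.35, edgeR adjusted p = 0.0969). The activin receptor ACVR2A (-0.55, SE 0.12, edgeR adjusted p = 0.00944), TGFB3 (-0.51, SE 0.19, edgeR adjusted p = 0.0888) and TCF7L1, a repressor in Wnt signalling (-0.35, SE 0.11, edgeR adjusted p = 0.0542), fell. Of all genes, 19.7% were called here. ACVR2A kept its call in all 14 fits without 1 animal and in the 7 other alternatives. The call was lost in 10 of the 14 for ENG, 8 for TGFB3 and 3 for TCF7L1, and without the block and with voom for all of these. With vehicle libraries only it was lost for ENG and TGFB3.

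By edgeR, no gene of these 5 lists was called in any comparison of breeding status, solitaires or estradiol, and at most 2 genes of a list had an unadjusted p under 0.05. For queens against nonbreeders in long bone cells, the log2 difference was negative in 9 of 10 genes of the collagen and elastic matrix (median -0.44 against 0.02 for all genes), in 7 of 8 for collagen receptors and turnover (-0.45) and in 14 of 16 for growth factor signalling (-0.34), while all 12 leukocyte markers were positive (median 1.61). Without MAF006 and NOF009 the same lists had 3 of 10, 1 of 8 and 8 of 16 negative differences, with medians of 0.054, 0.14 and 0.015, so their sign rested on these queens, while 11 of 12 leukocyte markers stayed positive (median 1.39), and the part of these cells in the medians was not tested. MAF006 and NOF009 were also the oldest queens, and the part of age was not tested. In the long bones of MAF006 with vehicle, all 10 genes of the collagen and elastic matrix list were among their own 3 lowest libraries. The same held for 7 of 8 for receptors and turnover, and COL1A1 was at its lowest. For solitaires against helpers in long bone cells, the difference was positive in 9 of 10, 8 of 8 and 15 of 16 genes of the same lists, with medians of 0.63, 0.64 and 0.35 against -0.00029 for all genes. Without MAF006 it was positive in 4 of 10, 6 of 8 and 9 of 16, with medians of -0.071, 0.19 and 0.071.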

How the data were processed

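Cells were cultured by the authors from pooled long bones or LV. The authors trimmed reads with cutadapt 2.3, aligned them with STAR to the assembly DMR_v1.0 and used HTSeq to count uniquely mapped reads over Ensembl gene models. The deposited values are these raw counts per gene, and all 47 columns were used. No strand setting was stated, so overlapping and antisense genes are uncertain. Symbols came from the study's gene table, of which 1594 rows were at hand.

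The analysis used edgeR 4.0.16 (TMM, quasi-likelihood) in R 4.3.3 on the 11047 genes with at least 2 CPM in at least 25% of libraries, with Benjamini-Hochberg adjustment over all of them. For bone and status comparisons, libraries from the same animal and bone type were summed. Animal (bone, estradiol and their interactions with status) or natal colony (status) was the block. Colonies were read from animal names, since no label gives them. Sisters deviated together, with correlations of 0.191 to 0.817 in 8 long bone pairs and 0.293 to 0.608 in 6 LV pairs, against medians of -0.115 and -0.139 between colonies. In the paper natal colony also stands for the date of sacrifice, so kinship and date cannot be told apart here. Days in culture and the share of reads that fell in genes, for which the paper adjusted, were not in these fits. Standard errors are the log2 difference divided by the root of F. No library was a duplicate (chi-squared per degree of freedom of at least 26.2 over 86 pairs of a group). Correlations used 100000 resamples in Python 3 with NumPy. Alternatives were DESeq2 1.42.0, its size factors, limma 3.58.1 (voom), other filters, no block, vehicle libraries only and leaving out each animal. Leaving out MAF006 and NOF009 together, and single animals in the permutation tests, was chosen after seeing the data. Models were tested on simulated data.

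Members and gene lists were chosen with earlier results of these data known. Named genes are the members, the list genes and the 5 genes with a symbol nearest to each member. No sequence or coordinates are given, since the reference table used here is of another build.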

Additional observations from a re-analysis of the deposited data

Results flagged for a closer look

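PHEX per animal in the LV of queens had 1 value far from the others. MAF006 was at 7.78 log2 CPM and the next queen at 3.81, so that the gap was 0.900 of the whole range of 4 animals (Dixon's limit 0.829). PHEX per animal in the long bones of helpers had WAF011 at 3.57 and the next at 2.76 log2 CPM, a gap of 0.633 of the range of 7 animals (limit 0.568). Of 24 groups looked at, these 2 passed the limit, where chance passes about 1 in 20.

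PHEX was also marked because its effects differed between groups at an unadjusted p under 0.05, in tests that did not pass the correction over all genes. Its queen effect was 1.65 higher on the log2 scale in the LV than in the long bones, and its estradiol effect in the long bones was -1.45 in queens relative to nonbreeders.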

How the results depend on the processing

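Between bone types, PHEX was higher in the LV in all 21 alternatives (0.28 to 1.98 on the log2 scale) and called in 10 of them. The limma voom model, whose bone term is that of vehicle libraries of nonbreeders, gave 0.28 (adjusted p = 0.918), and leaving out single animals gave 0.55 (without MAF006) to 0.87 (without G4F019). The call stayed without G4F019, G4F020, MAF006 or WEF002 and was lost without any other animal. COL1A1 was lower in the LV in all 21 alternatives and called in none. Without the animal or colony block (no paired fit), the bone difference of PHEX was 1.98 and that of COL1A1 -0.65. The same fits without the block turned COL1A1 to 0.83 for queens and -0.63 for solitaires in the long bones, 0.13 for estradiol in the long bones and -0.57 for the queen effect between bones, and PHEX to 0.093 for queens in the long bones; all these missed the threshold. Testing all 25892 genes with a count left the PHEX difference of queens in the LV at 1.12, but its SE went from 0.77 to 0.28. It then passed the threshold (edgeR adjusted p = 0.00700), in a fit that called 370 genes in place of 0. With vehicle libraries only, PHEX turned to 0.33 for queens in the long bones and 0.34 for solitaires in the LV, and the differences between permuted levels were -0.28 for COL1A1 in the long bones and 0.62 for PHEX in the LV. There, correlations were -0.71 for COL1A1 and PHEX in long bone cells and 0.16 in LV cells, and those of the leukocyte level with PHEX 0.13 and -0.29. With helpers and solitaires only, PHEX in the LV was 0.32. The voom model gave -0.043 for COL1A1 of queens and 0.60 for PHEX with estradiol in the LV. Without MAF006 and NOF009, COL1A1 of queens in the long bones was 0.59 and the estradiol effect of PHEX 0.25. The causes were not tested.

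Leaving out 1 animal moved COL1A1 between -0.81 and 0.18 (queens, long bones), -0.059 and 0.49 (queens, LV), 0.28 and 1.49 (solitaires, long bones), -0.75 and 0.27 (solitaires, LV), -0.22 and 0.18 (estradiol, long bones), -0.23 and 0.24 (estradiol, LV), -0.70 and 1.13 (queen effect between bones), 0.26 and 1.14 (estradiol effect between statuses) and -0.48 and -0.14 (bones). PHEX moved between -0.22 and 0.20, 0.19 and 1.89, -0.35 and -0.03, -2.34 and 0.33, -0.22 and 0.16, -0.071 and 0.011, 0.89 and 2.18, and -1.75 and -1.03 in the same order. Its queen effect between bones passed the threshold without WAF014, where 1092 genes were called in place of 0, and was 0.53 with vehicle libraries only and 2.95 without the block. Differences of levels moved between -0.68 and 0.91 (COL1A1, long bones), 0.03 and 0.61 (COL1A1, LV), -0.060 and 0.26 (PHEX, long bones) and 0.71 and 2.18 (PHEX, LV), where the call was lost without DVF007, LAF007 or MAF006.

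The count of genes called between bones was 2179, and 320 without the block, 755 with vehicle libraries only, 335 with voom and 1278 to 2902 without 1 animal. For queens in the long bones it was 0, and 391 with DESeq2, 728 with voom and 1005 with all genes. There it was also 65 with the filterByExpr filter, 76 with vehicle libraries only and 0 to 271 without 1 animal. For queens in the LV it was 0, and 105 with DESeq2, 158 with voom and 370 with all genes. For solitaires in the long bones it was 1, and 139 with DESeq2. With all genes, list genes called for queens in the long bones were 3 (collagen), 4 (receptor), 2 (secretory), 0 (mineral) and 1 (growth factor). That fit called 1005 of the 25892 genes with a count, and the direction of the list calls is not given here. With its filter edgeR called 0 genes of these lists, and DESeq2 called 1 of the receptor list. The calls of the lists between bones fell from 1 to 0 (collagen), 1 to 0 (secretory), 2 to 1 (mineral) and 4 to 1 (growth factor) with voom, and to 0, 0, 1 and 2 with vehicle libraries only. PHEX rested on 18 to 1484 counts, and its low libraries limit what can be seen.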

Other observations

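Over the 47 libraries, which share animals, COL1A1 and PHEX stood in opposite relation to the summed level of 3 contractile genes (CNN1, MYL9 and SMTN), with Pearson's r of 0.51 and -0.52 on the log2 scale. With the adipocyte genes PPARG, PLIN2 and MEDAG r was 0.27 for COL1A1 and -0.41 for PHEX, and with 5 endothelial genes 0.26 and -0.35. Between COL1A1 and the summed collagen and elastic matrix list r was 0.86, and for PHEX it was -0.25. The osteoclast protease CTSK had r of 0.36 with COL1A1 and -0.07 with PHEX, and Spearman's rho of 0.31 and 0.22. In the same order, rho was 0.39 and -0.52 with the contractile genes and 0.14 and -0.44 with the adipocyte genes. It was 0.17 and -0.39 with the endothelial genes and 0.73 and -0.44 with the collagen list. With the summed list for phosphate, pyrophosphate and mineral, r was 0.18 for COL1A1 and 0.36 for PHEX, and rho was 0.11 and 0.51. These values are descriptions across libraries and were given no test.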
